A study of Mus musculus with 72 samples.

Results

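The top radiation step of the series was examined in lung, 12 Gy against 8 Gy, 48 h after total-body X-irradiation. It rests on 6 of the 72 arrays of the series, chosen by their labels: the lung mRNA arrays of 3 samples given 8 Gy (sample numbers 5, 15 and 25) and of 3 given 12 Gy (6, 16 and 26). All were female C57BL/6 J mice of 6 to 8 weeks, exposed once in a plastic container, and sham-exposed mice in the same kind of container (0 Gy) were the controls. The sample numbers were taken as mice. The labels do not say so outright, so the p-values measure the spread between samples, which may be technical. Lung RNA was labelled in 1 colour and hybridized to Agilent mouse expression arrays, 1 array per sample, and 56605 non-control probes were read, of which 34566 carried a RefSeq gene symbol.

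Ionizing radiation breaks DNA and stabilizes the transcription factor p53, which switches on genes of growth arrest (Cdkn1a), cell death (Bbc3, Bax) and its own feedback (Mdm2). The lung holds cells of very different radiosensitivity: lymphocytes and natural killer (NK) cells are lost readily, while the alveolar epithelium, the endothelium and the resident macrophages persist for longer. It also keeps a circadian clock, in which ARNTL (BMAL1) and CLOCK switch on genes through E-boxes, and the ROR and REV-ERB receptors act in opposite directions on Arntl itself. The tissue was powdered whole, so that fewer cells of a type and less RNA per cell cannot be told apart in what follows.

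The arrays did not form 2 even groups. Mice 5 and 15 (8 Gy) were hybridized on a slide shared with the 2 and 4 Gy mice. Mouse 25 (8 Gy) and all 3 mice of 12 Gy were on another slide, scanned on a later day. The sham (0 Gy) and 1 Gy lung mice were on a further slide, scanned on the first day. Every comparison of sham or 1 Gy values with 8 or 12 Gy below therefore crosses slides, and dose and slide cannot be told apart in it. On the 4 lung arrays of the later day 54.1 to 54.8% of spots were well above background, against 59.2 to 64.0% on the other 14 lung arrays, and the 75th percentile of the processed signal was 656 to 763 against 1038 to 1281. No spot of any of these arrays was saturated. Mouse 16 had 1578 spots set aside as outliers by the scanner software, against 110 to 229 on the other 5 arrays, and a probe set aside in 1 mouse is given below with n = 2 at that dose.

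**Figure D1:**
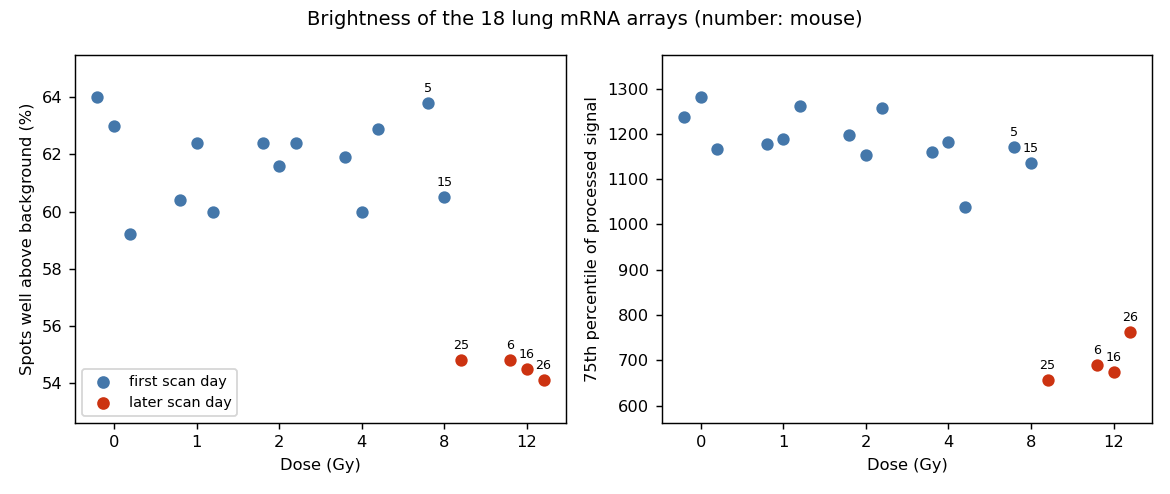
Brightness of the 18 lung mRNA arrays by dose in Gy (x axis), 1 point per mouse: on the left the percentage of spots well above background, on the right the 75th percentile of the processed signal (linear intensity). Blue points were scanned on the first day and red points on the later day; at 8 and 12 Gy the mouse number is printed. The 8 Gy mouse 25 lies with the 3 mice of 12 Gy (54.1 to 54.8%) and apart from mice 5 and 15.

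After quantile normalization of the 18 lung arrays, mouse 25 still correlated more closely with the 12 Gy mice (Pearson's r across probes 0.980 to 0.983) than with mice 5 and 15 of its own dose (0.974 to 0.976). Mice 5 and 15 correlated at 0.987 with each other, and the 12 Gy mice at 0.981 to 0.985. Within 8 Gy, 242 of 43918 probes (0.551%) were higher and 1158 (2.64%) lower in mouse 25 than in mice 5 and 15, at limma's adjusted p under 0.05 and a change of at least 2-fold. That test has 1 mouse on one side, and takes its spread from the other arrays. For 61.6% of the tested probes mouse 25 lay nearer to the 12 Gy mean than to mice 5 and 15. With 1 mouse of 8 Gy on the later slide, the slide and that mouse cannot be told apart. The main counts and many of the changes are therefore given with all 6 mice and again after adding 1 term for the slide to the model. This term marks the later slide only and does not separate the slides of the first day. In that model the 12 Gy mice are set against mouse 25 alone. Where a lung change is given once, it is from all 6 mice.

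Few probes passed the test. At an adjusted p under 0.05 and a log2 change of at least 1 (2-fold), 10 of 43979 probes (0.0227%) were higher at 12 Gy and 71 (0.161%) were lower, by limma over all 18 lung arrays. Without the fold threshold 103 probes (0.234%) had an adjusted p under 0.05. At an unadjusted p under 0.05, 5162 probes (11.7%) were higher and 3488 (7.93%) lower. Among 42577 probes measured on all 6 arrays, the 3 mice of 12 Gy lay wholly above the 3 of 8 Gy in 4580 (10.8%) and wholly below in 2700 (6.34%). The median log2 change of all tested probes was 0.085, and the median standard error of a change was 0.23.

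With the slide as a term, 62 probes (0.141%) were called higher and 94 (0.214%) lower, and 2521 (5.73%) and 1675 (3.81%) at the unadjusted p. These counts share only 11 probes with the 81 called from all 6 mice. The median fitted change of the called lower probes, which were chosen with mouse 25 and the same 12 Gy mice, was -1.37 with all 6 mice and -0.98 with the slide term. That of the called higher probes was 1.11 and 1.13. The counts depended on which mouse was left out. Without mouse 25, 312 probes were called higher and 1390 lower, 78 of them among the 81. Every 12 Gy array was then on the later slide and no 8 Gy array was. In this and every other value given without mouse 25, dose and slide therefore cannot be told apart. Without mouse 5 or without mouse 15, 0 were higher and 2 lower (5613 and 5792 at the unadjusted p), and without mouse 16, 7 and 42.

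The called lower probes were dim ones. Of the 71, 56 were well above background on no 12 Gy array, a state shared by 27.9% of all tested probes. On all 6 arrays 9 of the 71 were well above background, beside 27504 of all 43979 tested probes. In mouse 25, on the same slide as the 12 Gy mice, 30 of the 71 were well above background. Their median log2 intensity was between 5.74 and 6.04 at each dose from 0 to 8 Gy and 4.59 at 12 Gy. Of the 10 called higher, 6 were well above background on all 6 arrays, near the share of all tested probes. The median of the 10 was 6.06 at 8 Gy and 7.16 at 12 Gy.

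Ccdc184, which encodes a coiled-coil protein, had the largest fitted change among the called higher genes (probe A_55_P2169227). Its log2 intensity was 7.67, 7.93 and 7.72 in the 8 Gy mice 5, 15 and 25 and 9.12, 9.25 and 8.93 in the 12 Gy mice 6, 16 and 26, so that mouse 25 lay with its own dose. The change was 1.33 ± 0.18 (log2, standard error, n = 3 per dose, limma adjusted p = 0.0249), or 2.51-fold, and 1.38 with the slide term (adjusted p = 0.0389). In the sham mice the probe stood at 6.64 ± 0.06 (SD, n = 3), and the means were 7.32 at 4 Gy and 7.77 at 8 Gy. A second probe of the gene changed by 0.93 (adjusted p = 0.0526).

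Arntl, the ARNTL partner of CLOCK and the core activator of the circadian clock, was the only clock gene to pass the adjusted test (probe A_52_P267651). It was at 7.07, 6.54 and 7.24 in the 8 Gy mice and at 7.88, 8.24 and 8.06 in the 12 Gy mice, with no overlap. The change was 1.11 ± 0.18 (n = 3 per dose, limma adjusted p = 0.0295), and 0.82 with the slide term (adjusted p = 0.206). The sham mice were at 7.49 ± 0.14 (SD, n = 3), between both doses. A further pair of Arntl probes, well above background on none of the 6 arrays, gave no measured change.

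Psmd2, a non-ATPase subunit of the proteasome cap, was at 12.39 and 12.41 in mice 5 and 15, at 13.24 in mouse 25 and at 13.58, 14.06 and 13.70 in the 12 Gy mice. Mouse 25 stood between its own dose group and the other, and the change of 1.1 ± 0.21 (limma adjusted p = 0.0450) was 0.54 with the slide term. A second Psmd2 probe changed by -0.55 (adjusted p = 0.157), so that the gene's probes disagreed in sign. Pdlim4, an actin-associated protein with PDZ and LIM domains, was at 9.55, 9.65 and 9.97 at 8 Gy and 10.50, 11.10 and 10.72 at 12 Gy (change 1.05 ± 0.20, limma adjusted p = 0.0448, 0.80 with the slide term).

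Trim30b, of the tripartite motif family of immune genes, was at 5.77, 5.98 and 5.83 at 8 Gy and 6.85, 6.72 and 7.44 at 12 Gy. Its 12 Gy mean of 7.0 was close to the sham mean of 6.94, and the change of 1.14 ± 0.21 (limma adjusted p = 0.0400) was 1.17 with the slide term. The uncharacterized 1110002O04Rik was at 6.44, 6.16 and 6.16 at 8 Gy and 7.0, 7.56 and 7.39 at 12 Gy (1.06 ± 0.17, limma adjusted p = 0.0295, 1.16 with the slide term). Both remaining called higher genes were well above background on no 8 Gy array, so that the fold is a lower bound. It sets the mean of the brighter dose against, on each dim array, the lowest signal well above background or the probe's own signal, whichever was higher. Cdc20b, a relative of the mitotic activator Cdc20 whose locus is active in multiciliated cells, was at least 1.96-fold higher (limma adjusted p = 0.0343). Gm29536, a predicted gene, was at least 2.13-fold higher (adjusted p = 0.0262), where the probe's own signal was the higher one and the bound equals the fitted fold.

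Some genes had an adjusted p under 0.05 without reaching 2-fold. Ankrd13d, a ubiquitin-binding ankyrin repeat protein, changed by 0.99 ± 0.16, from a mean of 8.66 to 9.65 without overlap (limma adjusted p = 0.0295). Dok7, the adaptor that activates the receptor MuSK at the neuromuscular junction, changed by 0.84 ± 0.16, from 7.96, 7.84 and 8.00 to 8.71, 8.79 and 8.82 (adjusted p = 0.0422). Its means were higher at each higher dose, from 7.17 in sham mice through 7.26, 7.49, 7.63 and 7.93 to 8.77. Fut10, of the fucosyltransferase family, changed by 0.75 ± 0.14 (adjusted p = 0.0400) and C030037D09Rik by 0.78 ± 0.15 (adjusted p = 0.0468). With the slide term the changes were 0.736 for Ankrd13d, 0.775 for Dok7, 0.684 for Fut10 and 0.543 for C030037D09Rik.

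C130071C03Rik, a long non-coding transcript, was among the called lower genes (probe A_52_P209944). It was at 5.81, 5.75 and 6.64 at 8 Gy and, well above background on no array, at 4.07, 4.45 and 4.13 at 12 Gy, at least 2.07-fold lower (limma adjusted p = 0.0249). Mouse 25 was the highest of the 8 Gy mice. The fitted change, which rests on signal not well above background at 12 Gy, was -1.85 with all 6 mice and -2.42 with the slide term. Of the 81 called probes it was the only one called whichever of the 6 mice was left out. The same order held for a probe of Ccdc82, at 7.20, 6.92 and 8.14 at 8 Gy and 5.90, 5.56 and 5.62 at 12 Gy, a change of -1.73 ± 0.24 (limma adjusted p = 0.0249) and -2.45 with the slide term. Its other 3 probes changed by 0.40, -0.54 and 0.003.

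Flt3, the receptor tyrosine kinase of dendritic cell and lymphoid progenitors, was the only called lower gene that belonged to any of the cell type or response lists. It was at 6.33, 5.86 and 6.35 in the 8 Gy mice and at 5.37, 4.75 and 5.33 in the 12 Gy mice, well above background on none of the 12 Gy arrays. It was at least 2.02-fold lower (limma adjusted p = 0.0448). The fitted change, which likewise rests on signal not well above background, was -1.03 with all 6 mice and -1.20 with the slide term. The means were lower at each higher dose, from 8.60 in sham mice through 7.31, 7.16, 6.33 and 6.18 to 5.15.

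Tpm3, a tropomyosin of the actin filament, was at 8.23, 8.50 and 7.56 at 8 Gy and 6.86, 6.61 and 6.32 at 12 Gy on the called probe (-1.5 ± 0.25, limma adjusted p = 0.0343, -0.96 with the slide term). Its other 5 probes changed by -0.36 to 0.25. Rars, the cytosolic arginyl-tRNA synthetase, was at 7.28, 7.81 and 6.94 at 8 Gy and 5.82, 6.05 and 6.02 at 12 Gy on the called probe (-1.38 ± 0.23, limma adjusted p = 0.0343, -0.97 with the slide term). Its other probes changed by -0.14 and -0.09. The called probes of Cbx5, the heterochromatin protein HP1 alpha, and of Mphosph10, a protein of ribosomal RNA processing, were at least 2.52-fold and at least 2.05-fold lower (adjusted p = 0.0295 and 0.0253), while their second probes changed by 0.22 and -0.04.

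This difference between probes of a gene was common. Of the 32 genes with a called lower probe, 21 had another tested probe, 35 in all. None of the 35 had an adjusted p under 0.05 in limma. At the unadjusted p 6 were lower and 4 higher, and their fitted changes had a median of -0.09. The other 11 genes had no further tested probe. Other genes called lower were Oprl1, the nociceptin receptor, at least 2.79-fold, Spata24 at least 2.78-fold, Ctnna2, a neuronal alpha-catenin, at least 1.91-fold, Nuggc, a nuclear GTPase of germinal-centre B cells, at least 1.34-fold, and Gm30893 at least 1.08-fold (adjusted p = 0.0251 to 0.0491). For Oprl1 the bound equals the fitted fold, and of 2 other probes one was at least 1.38-fold lower (adjusted p = 0.185) and one changed by 0.27. Ctnna2 has a probe that was at least 2.13-fold higher and well above background on no 8 Gy array (adjusted p = 0.0641), and another that was well above background on none of the 6 arrays (-0.99, adjusted p = 0.109). Gm14326 was measured above background on all 6 arrays, at 9.55, 9.71 and 8.43 and at 7.86, 7.97 and 7.68 (-1.39 ± 0.26, limma adjusted p = 0.0413, -0.59 with the slide term).

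The genes activated by p53 leaned higher at 12 Gy, each by less than 2-fold, and none passed the adjusted test. Of 40 genes in both lists together, 35 changed by more than 0 and 16 were higher at the unadjusted p, by 0.30 to 0.94, where 11.7% of all probes were higher. All 16 were already higher at 8 Gy than in sham mice. In 11 of the 16 the 3 mice of 12 Gy lay wholly above those of 8 Gy, where 10.8% of all probes did. The 16 were chosen by their p-value in this same contrast. Neither that count nor their sign with the slide term is therefore independent of the choice. With the slide term 15 of the 16 stayed above 0 and 4 had an unadjusted p under 0.05. The list of growth arrest and feedback (21 genes tested) had a median change of 0.35, with 10 higher and 1 lower, and 0.25 with the slide term. The list of cell death (21 genes) had a median of 0.30, with 7 higher and 0 lower, and 0.17 with the slide term. The medians over all tested probes were 0.085 and 0.036. Without mouse 25 both lists' medians were 0.30 and 0.37.

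Pidd1, the p53-induced scaffold of caspase-2 activation, had the largest change of these genes. It was at 6.88, 7.40 and 7.66 at 8 Gy and 8.08, 8.57 and 8.10 at 12 Gy (0.94 ± 0.20, limma adjusted p = 0.0547, 0.59 with the slide term). Its mean was 6.86 in sham mice and 6.58 to 6.67 from 1 to 4 Gy, so that it lay above the sham level only at the 2 top doses. Cdkn1a, the cell cycle inhibitor p21, was at 14.53, 14.18 and 15.04 at 8 Gy and 15.26, 15.03 and 15.29 at 12 Gy, against 11.55 ± 0.22 (SD, n = 3) in sham mice. Mouse 25 reached the 12 Gy range, and the change was 0.61 ± 0.20 with all 6 mice (limma adjusted p = 0.127) and 0.15 with the slide term. Trp53inp1, a p53 target that promotes autophagy and cell death, went the other way with the slide. It was at 13.92, 13.95 and 13.27 at 8 Gy and, with mouse 16 set aside, at 14.34 and 14.37 at 12 Gy (0.64 ± 0.22, adjusted p = 0.146, 1.09 with the slide term).

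The BH3-only genes, whose products start mitochondrial cell death, were among the steadier ones. Bbc3 (PUMA) was at 12.03, 12.00 and 12.05 at 8 Gy and 12.45, 12.84 and 12.55 at 12 Gy (0.59 ± 0.15, limma adjusted p = 0.0818, 0.57 with the slide term). Pmaip1 (NOXA) was at 12.50, 12.67 and 12.90 and at 13.12, 13.59 and 13.18 (0.61 ± 0.15, adjusted p = 0.0833, 0.40 with the slide term). The 3 mice of each dose did not overlap in either gene. Bax, their pore-forming effector, was at 13.46, 13.65 and 14.27 and at 14.28, 14.45 and 13.95, where mouse 25 overlapped the 12 Gy mice (0.43 ± 0.18, adjusted p = 0.211, -0.05 with the slide term). Phlda3, an inhibitor of AKT signalling, changed by 0.54 ± 0.16 and Gdf15, a stress cytokine, by 0.60 ± 0.17, without overlap, and Eda2r, a receptor of the tumour necrosis factor family, by 0.30 ± 0.18 with overlap (adjusted p = 0.113, 0.105 and 0.359). Ei24 was the gene lower at the unadjusted p, at 11.78, 11.78 and 10.93 and at 11.04, 11.03 and 10.86 (-0.52 ± 0.20, adjusted p = 0.168), with mouse 25 at the 12 Gy level and a slide-term change of 0.04.

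**Figure D2:**
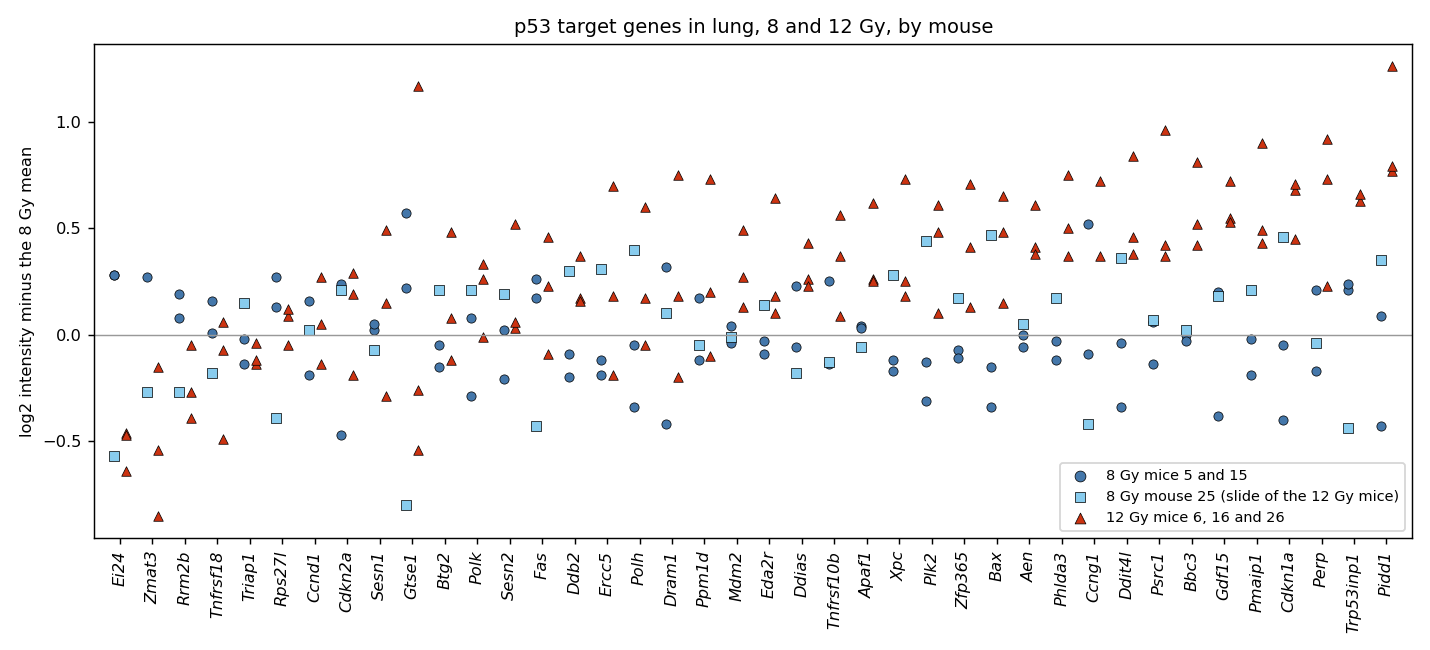
Genes of both p53 target lists, ordered by their change (x axis), with each mouse's log2 intensity minus the gene's 8 Gy mean (y axis). Circles are the 8 Gy mice 5 and 15, squares the 8 Gy mouse 25 and triangles the 12 Gy mice 6, 16 and 26; a value set aside as an outlier is not drawn. Most triangles lie above 0 in the right part of the plot, by less than 1 log2 unit in nearly all genes, and for Cdkn1a and Bax the square lies among them.

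Arntl apart, no clock gene passed the adjusted test. Of 17 listed genes 16 were tested. With all 6 mice 3 were higher and 2 lower at the unadjusted p, not far from the 11.7% and 7.93% of all probes. That nearness was read from all 6 mice only and does not extend to the slide term. The median change was 0.17, and 0.04 with the slide term, where 9 of the 16 were above 0 and changes ran in both directions. Beside Arntl, Nfil3, a repressor that competes with the activators DBP, TEF and HLF, was at 8.91, 8.48 and 8.38 at 8 Gy and 9.43, 9.18 and 9.52 at 12 Gy (0.79 ± 0.23, limma adjusted p = 0.107, 1.00 with the slide term). The 3 mice of each dose did not overlap, and the sham mean was 8.33. Bhlhe41, a repressor of the same loop, was the other gene higher at the unadjusted p (0.48 ± 0.20, adjusted p = 0.208), with 0.06 under the slide term.

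Both REV-ERB genes, repressors of Arntl and Nfil3, lay below. Nr1d2 was at 12.40, 12.60 and 12.78 at 8 Gy and at 12.17 and 12.12 at 12 Gy, mouse 16 set aside (-0.45 ± 0.17, limma adjusted p = 0.176, -0.64 with the slide term). Nr1d1 was at 8.84, 9.32 and 9.45 and at 8.46, 9.11 and 8.34, with overlap (-0.56 ± 0.28, adjusted p = 0.282, -0.81 with the slide term). The output activators Hlf and Dbp changed by -0.48 ± 0.21 and -0.26 ± 0.19 (adjusted p = 0.219 and 0.458). Ciart, a repressor of the ARNTL and CLOCK pair, ranged widely at 8 Gy, from 8.08 in mouse 25 to 9.99 in mouse 15, and was at 8.69, 7.53 and 8.13 at 12 Gy (-0.89 ± 0.45, adjusted p = 0.287, 0.04 with the slide term). The hour of day of exposure or of tissue collection is not given in the sources used here.

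**Figure D3:**
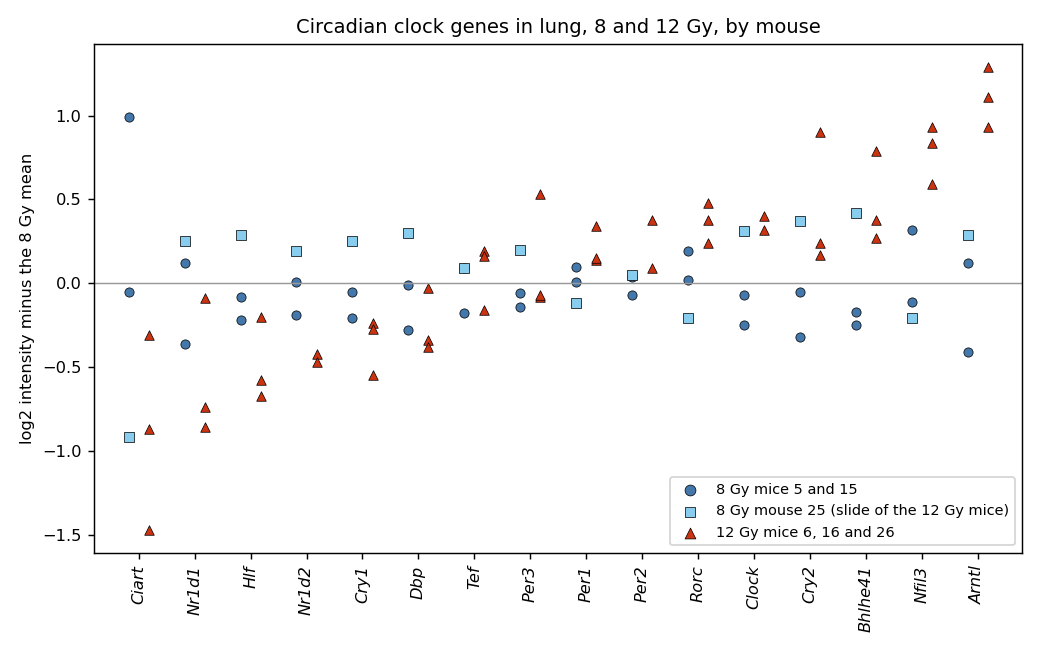
Circadian clock genes ordered by their change (x axis), with each mouse's log2 intensity minus the gene's 8 Gy mean (y axis) and the marks of the p53 plot: circles for 8 Gy mice 5 and 15, a square for 8 Gy mouse 25, triangles for 12 Gy. Arntl and Nfil3 on the right have all triangles above all 8 Gy marks, and the triangles of Nr1d1, Nr1d2 and Hlf lie below 0.

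Promoters are shown for Arntl and Nfil3, the clock genes with the largest changes without overlap, and for Ciart, the listed gene whose window held most E-boxes. Each window holds 300 bases around a RefSeq start (GRCm38.p6), 5′ to 3′ on the gene's strand, with the searched letters in capitals. The core of the ROR and REV-ERB element was searched as AGGTCA and the E-box as CACGTG, on both strands.
Arntl (chr7:113207261-113207560, plus strand): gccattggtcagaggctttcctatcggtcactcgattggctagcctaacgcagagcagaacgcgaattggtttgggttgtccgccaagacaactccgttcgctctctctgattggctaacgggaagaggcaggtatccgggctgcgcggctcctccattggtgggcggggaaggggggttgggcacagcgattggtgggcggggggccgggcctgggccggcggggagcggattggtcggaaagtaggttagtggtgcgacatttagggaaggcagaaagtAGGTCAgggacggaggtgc
Nfil3 (chr13:52980990-52981289, minus strand): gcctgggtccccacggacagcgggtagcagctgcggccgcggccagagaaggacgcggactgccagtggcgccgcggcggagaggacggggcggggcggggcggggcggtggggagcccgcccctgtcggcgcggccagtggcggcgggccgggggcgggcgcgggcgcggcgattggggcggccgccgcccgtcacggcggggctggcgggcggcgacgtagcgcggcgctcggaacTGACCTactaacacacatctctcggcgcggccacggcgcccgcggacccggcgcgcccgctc
Ciart (chr3:95882179-95882478, minus strand): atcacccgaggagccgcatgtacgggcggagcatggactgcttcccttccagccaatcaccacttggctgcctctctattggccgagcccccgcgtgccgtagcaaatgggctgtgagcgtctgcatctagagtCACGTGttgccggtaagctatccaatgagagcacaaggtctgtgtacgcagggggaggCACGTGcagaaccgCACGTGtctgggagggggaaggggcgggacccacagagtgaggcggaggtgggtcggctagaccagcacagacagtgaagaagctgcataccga
The core stands at position 31 after the Arntl start and at -12 in the Nfil3 window, there read from the other strand as TGACCT. The Ciart window holds 3 E-boxes, at -116, -58 and -44. Of all 32851 promoters in the reference table, 16.3% (5340) hold the core and 2349 (7.15%) the E-box. Of the 20 listed promoters of 15 clock genes, 5 hold the core and 6 the E-box. Arntl has a second listed promoter (chr7:113207215-113207514), which holds no core. Its window overlaps the one shown and ends before the marked core, so that the absence reflects where the window stops. The matches describe the letters of these windows only.

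Markers of NK and cytotoxic cells leaned lower. Of 16 genes, 0 were higher and 5 lower at the unadjusted p, beside 11.7% and 7.93% of all probes, with a median change of -0.39 and of -0.73 with the slide term, and none passed the adjusted test. Prf1, the pore-forming perforin of cytotoxic granules, was at 8.82, 8.33 and 7.58 at 8 Gy and 6.49, 7.04 and 6.64 at 12 Gy without overlap (-1.52 ± 0.31, limma adjusted p = 0.0529, -0.86 with the slide term). Its sham mean was 8.70. Klre1, an NK receptor, was at 6.33 and 7.02 in mice 15 and 25, mouse 5 set aside, and at 5.74, 5.70 and 5.92 at 12 Gy (-0.89 ± 0.24, adjusted p = 0.101). Xcl1, a chemokine of NK and T cells, was well above background on no 12 Gy array and at least 1.61-fold lower (adjusted p = 0.0948). The summed intensity of 14 NK markers was 7260, 9820 and 11500 at 8 Gy and 5770, 10200 and 6230 at 12 Gy, with overlap, against 27300 to 29800 in sham mice. The list's median change was -0.23 without mouse 25.

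Lymphocyte markers were already near their low end at 8 Gy. The T cell list (18 genes) had no gene at the unadjusted p and a median change of -0.26. Its summed intensity was 5620 to 6240 at 8 Gy and 4600 to 6690 at 12 Gy, against 17300, 22800 and 65700 in the sham mice. The sums of 10 immature thymocyte genes were 5100, 5510 and 18600 in the sham mice. In each of these lists 1 sham sum thus stood far above the others. Of 18 B cell genes 2 were higher and 3 lower at the unadjusted p, beside 11.7% and 7.93% of all probes. Their sums were 5480 to 6990 at 8 Gy and 6420 to 8590 at 12 Gy, against 27300 to 56100 in sham mice. Ms4a1 (CD20) was at 7.45, 7.18 and 7.01 and at 6.12, 6.05 and 7.22 (-0.75 ± 0.41, adjusted p = 0.318), and at 12.31 ± 0.94 in sham mice. The globins, carried by blood in the tissue, likewise stood far below sham at 8 Gy: Hba-a1 was at 17.38 in sham mice, 14.63 at 8 Gy and 14.25 at 12 Gy (-0.38 ± 0.26, adjusted p = 0.435). Hbb-b2 was at 10.53, 10.96 and 8.90 and at 8.82, 8.76 and 8.51 (-1.44 ± 0.52, adjusted p = 0.157), and with mouse 25 next to the 12 Gy mice its change was -0.21 with the slide term.

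Neutrophil markers leaned higher, with 7 of 18 genes higher and 1 lower at the unadjusted p (11.7% and 7.93% of all probes), 0 of them past the adjusted test. The median change was 0.43 (0.39 with the slide term, and 0.44 without mouse 25, where dose and slide cannot be told apart). These near-equal medians do not show that each gene kept its change with the slide term. In 12 of the 18 genes mouse 25 lay nearer to the 12 Gy mean than to mice 5 and 15, beside 61.6% of all tested probes. S100a9, a calcium-binding protein abundant in granulocytes, was at 13.03, 13.11 and 13.91 at 8 Gy and 14.01, 14.17 and 14.96 at 12 Gy (1.03 ± 0.29, limma adjusted p = 0.104, 0.47 with the slide term). Stfa2l1, a stefin of granulocytes, was at 7.56, 7.71 and 8.78 and at 9.23, 9.10 and 9.82 (1.37 ± 0.33, adjusted p = 0.0786, 0.61 with the slide term). In both genes mouse 25 was the highest of the 8 Gy mice. Ly6g, the surface marker by which mouse neutrophils are sorted, was the gene lower: it was at 9.58, 9.98 and 8.01 and at 7.75, 7.98 and 7.91 (-1.31 ± 0.36, adjusted p = 0.0978), with mouse 25 at the 12 Gy level and -0.13 with the slide term. The summed intensity of 17 neutrophil markers was 78100, 74400 and 102000 at 8 Gy and 102000, 111000 and 113000 at 12 Gy, where mouse 25 stood with mouse 6.

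The alveolar type 2 cells, which make surfactant, identified the tissue on every array: the summed intensity of 14 markers was 1000000 to 1140000 at 8 Gy and 914000 to 972000 at 12 Gy. Of 17 genes 4 were lower and 0 higher at the unadjusted p (7.93% and 11.7% of all probes), none past the adjusted test, with a median change of -0.18. Sftpa1, a surfactant protein, was at 17.51, 17.39 and 17.09 and at 16.80, 17.01 and 16.95 (-0.41 ± 0.15, limma adjusted p = 0.153, -0.17 with the slide term). Lyz1, a lysozyme, was at 16.08, 16.26 and 14.73 and at 14.64, 14.23 and 14.29 (-1.30 ± 0.30, adjusted p = 0.0742, -0.34 with the slide term). Sftpb, a surfactant protein required for breathing, was at 16.74 and 16.85 in mice 5 and 15, at 14.72 in mouse 25 and at 15.56, 15.50 and 15.45 at 12 Gy. Its change was -0.60 ± 0.39 (adjusted p = 0.403) with all 6 mice and 0.78 with the slide term, opposite in sign.

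**Figure D4:**
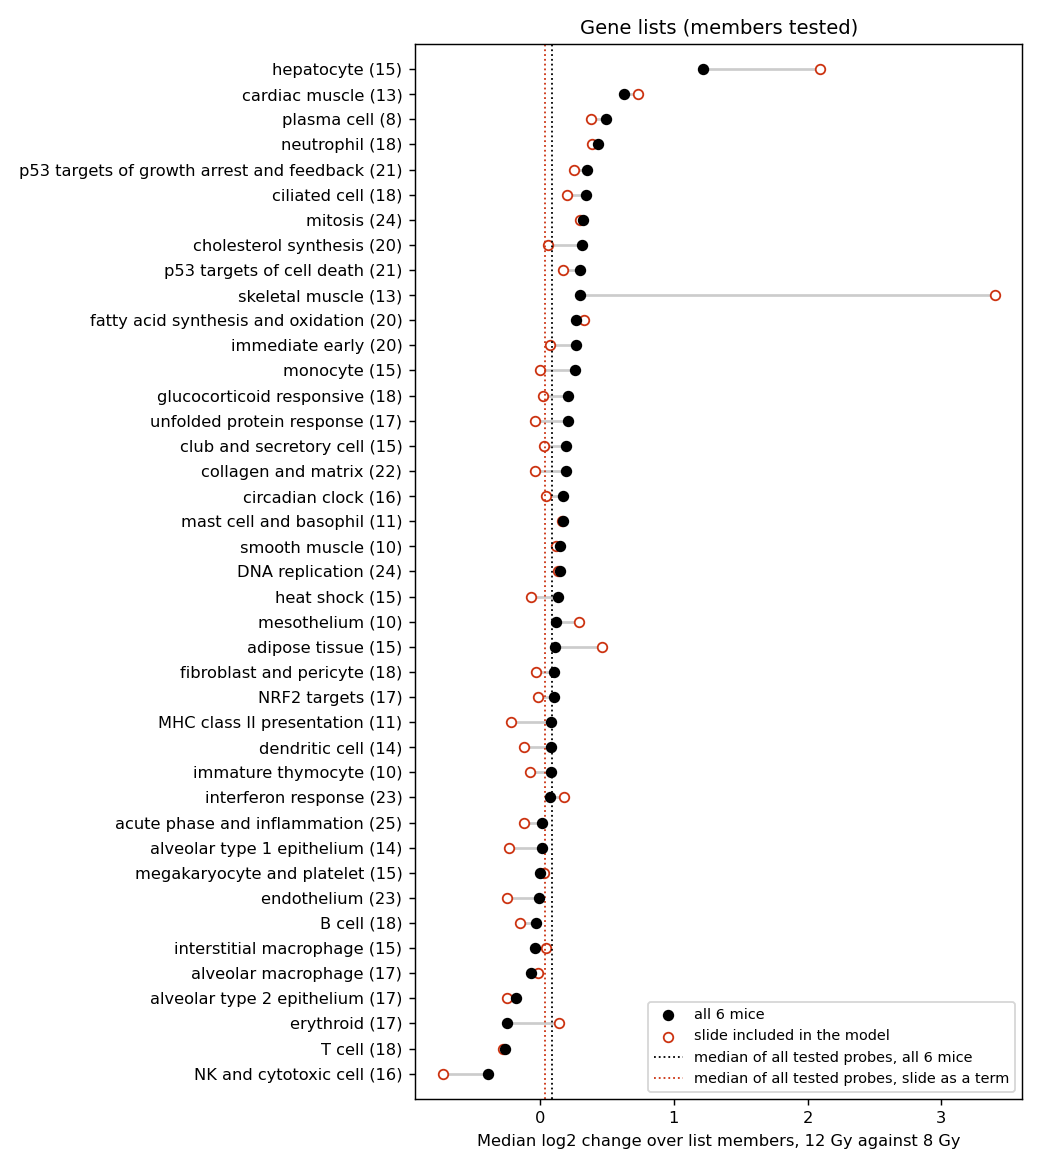
Median log2 change of each gene list, 12 Gy against 8 Gy (x axis), with the number of members tested after the list's name. Black points use all 6 mice, open red points the slide as a term, and the dotted lines mark the medians of all tested probes (0.085 and 0.036). The p53 and neutrophil lists lie right of both lines in both settings and the NK and T cell lists left of them, while skeletal muscle moves from 0.30 to 3.40.

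The other cells of the lung gave no shared direction. Their counts are at the unadjusted p, where 11.7% of all probes were higher and 7.93% lower. Plasma cells had the highest median among them (0.49, 2 of 8 genes higher), where Sdc1, a surface proteoglycan also made by epithelium, was at 12.70 and 12.66 in mice 5 and 15, 10.19 in mouse 25 and 12.62, 13.44 and 12.79 at 12 Gy (1.1 ± 0.46, limma adjusted p = 0.204, 2.76 with the slide term). Endothelial genes had 2 of 23 higher and 2 lower (median -0.01), and Tek, the angiopoietin receptor TIE2, was at 12.16, 11.90 and 12.16 and at 11.71, 10.87 and 11.73 (-0.64 ± 0.23, adjusted p = 0.156, -0.72 with the slide term). Medians were -0.07 for alveolar macrophages, 0.01 for alveolar type 1 cells, 0.08 for dendritic cells, 0.10 for fibroblasts and pericytes, 0.19 for club and secretory cells and 0.26 for monocytes. With the slide term these were -0.02, -0.23, -0.12, -0.03, 0.03 and 0 in that order. Plasma cells were then at 0.38 and the endothelium at -0.25.

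Among response lists, cholesterol synthesis had 7 of 20 genes higher and 0 lower at the unadjusted p, beside 11.7% and 7.93% of all probes, with a median of 0.31 and of 0.06 with the slide term. Hmgcs1, an early enzyme of the pathway, was at 13.91, 13.92 and 14.34 and at 14.48, 14.81 and 14.53 (0.55 ± 0.14, limma adjusted p = 0.0844, 0.27 with the slide term). Mitosis genes had a median of 0.32 (0.30 with the slide term), with 3 of 24 higher and 1 lower, close to the share of all probes. Melk, a mitotic kinase, was at 6.27, 6.81 and 6.01 and at 7.54, 7.5 and 6.91 (0.95 ± 0.25, adjusted p = 0.0876, 1.31 with the slide term), below its sham mean of 7.93. Ciliated cell genes had a median of 0.34 (0.20), with 7 of 18 higher and 2 lower. Dnah9, an axonemal dynein, changed by 0.65 ± 0.21 (adjusted p = 0.132). Mcidas, a regulator of multiciliated cell fate, was at 10.20, 10.20 and 7.69 and at 8.03, 8.24 and 8.13, so that its change of -1.23 ± 0.45 (adjusted p = 0.162) was 0.44 with the slide term.

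At the unadjusted p, where 11.7% of all probes were higher and 7.93% lower, the immediate early genes had 4 of 20 higher and 0 lower (median 0.27, 0.07 with the slide term). Fosb, a subunit of the AP-1 factor, was at 9.27, 9.15 and 10.51 and at 11.24, 10.92 and 10.49, with mouse 25 inside the 12 Gy range (1.24 ± 0.40, limma adjusted p = 0.126, 0.37 with the slide term). Cxcl5, a chemokine that attracts neutrophils, was at 6.02, 5.97 and 6.31 and at 6.86, 7.18 and 7.13 without overlap (0.96 ± 0.23, adjusted p = 0.0755, 0.75 with the slide term). The acute phase and inflammation list around it had 1 gene of 25 higher, 2 lower and a median of 0.01. The interferon list had 4 of 23 higher and 0 lower, with a median of 0.07. The other 7 response lists had 0 to 4 genes higher and 0 to 2 lower, with medians from 0.10 (NRF2 targets) to 0.27 (fatty acid synthesis and oxidation).

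Markers of tissues that border the lung varied widely between mice of 1 dose. The summed intensity of 13 skeletal muscle genes was 79200, 95100 and 2640 in the 8 Gy mice 5, 15 and 25 and 189000, 101000 and 4600 in the 12 Gy mice 6, 16 and 26, and 4070, 127000 and 3760 in the 3 sham mice. The 12 hepatocyte genes summed to 6790, 28000 and 7320 at 8 Gy and to 20700, 39600 and 10000 at 12 Gy. The 12 cardiac genes summed to 110000, 175000 and 133000 at 8 Gy and 176000, 125000 and 351000 at 12 Gy. Mouse 25 and mouse 26 were the low ones for skeletal muscle, and the list's median change went from 0.30 with all 6 mice to 3.40 with the slide term, which sets mouse 25 alone against the 12 Gy mice. The hepatocyte list had the largest median change of any list with all 6 mice, 1.22, with all 15 genes tested above 0. It was 2.09 with the slide term, 0.56 without mouse 5 and 2.46 without mouse 15. With all 6 mice no gene of the hepatocyte or skeletal muscle lists had an unadjusted p under 0.05. Of 13 cardiac genes 3 were higher and 0 lower, beside 11.7% and 7.93% of all probes, and none passed the adjusted test. The median cardiac change was 0.63, 0.73 with the slide term and 0.08 without mouse 26.

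**Figure D5:**
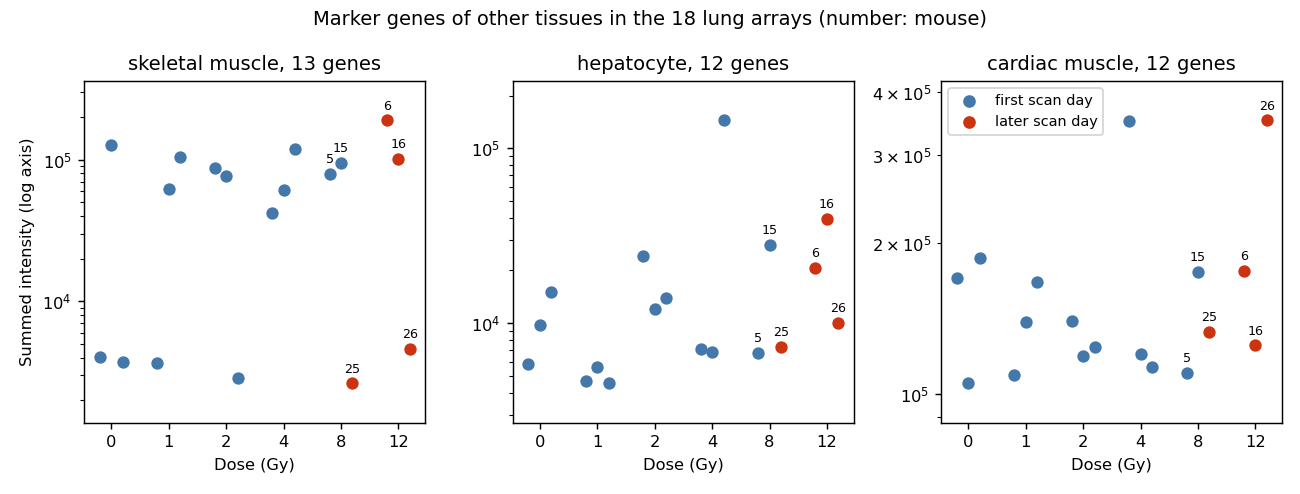
Summed linear intensity (log axis) of 13 skeletal muscle, 12 hepatocyte and 12 cardiac muscle genes in the 18 lung arrays, by dose in Gy (x axis). Each point is 1 mouse, blue for the first scan day and red for the later one, with mouse numbers at 8 and 12 Gy. At 8 and 12 Gy the skeletal muscle sums are either 2640 to 4600 (mice 25 and 26) or 79200 to 189000 (the other 4 mice).

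Liver arrays of the same numbers allowed the step to be compared between tissues. In liver 5 of 47376 probes were called higher and 8 lower between 8 and 12 Gy, with both tissues normalized together. All liver arrays were scanned on the first day. The 8 Gy liver arrays shared a slide with mouse 6 of 12 Gy, and mice 16 and 26 were on another. The lung step differed from the liver step in 0 of 47376 probes (0%) at limma's adjusted p under 0.05 and a difference of at least 2-fold, and in 5972 at the unadjusted p. The lung changes given next are from the lung arrays alone, and the liver changes from the joint normalization. With the joint normalization Arntl changed by 1.03 and Ccdc184 by 1.35 in lung. Arntl changed by 1.04 in liver (adjusted p = 0.229) and Nfil3 by 0.81 (adjusted p = 0.236), beside 1.11 and 0.79 in lung. Cdkn1a changed by 1.03 in liver (adjusted p = 0.0815) and Phlda3 by 0.70 (adjusted p = 0.0909), beside 0.61 and 0.54 in lung. Ccdc184 changed by 0.14 in liver and 1.33 in lung, and the difference had an unadjusted p of 0.00924 and an adjusted p of 0.248 in limma.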

How the data were processed

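Whole-lung RNA of 18 mice at 6 doses was hybridized to 1-colour Agilent mouse arrays. The authors deposited scanner files read with Agilent Feature Extraction 11.5.1.1, whose intensity columns give each spot's median and local background, not normalized, and its processed signal, with flag columns for background and outliers. They also deposited a value table of intensity, a linear scale that follows the processed signal divided by a constant per array (Pearson's r of the log2 values above 0.05, across probes, rounds to 1 on each lung array), with a floor of 0.01 and a median of 0.06 to 0.08 per lung array. The origin of the constant is not stated.

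Spots marked as outliers were set to missing. The median signal was corrected with normexp (offset 0), quantile-normalized over the 18 lung arrays and taken to log2 in limma 3.58.1 (R 4.3.3). The study also used normexp and quantile normalization, and states no offset. Replicate spots of a probe were averaged, while different probes were kept apart. The study instead averaged the probes of a transcript. Probes well above background on at least 1 lung array were tested, 43979 in all. The 6 dose groups entered 1 linear model with 12 residual degrees of freedom, and p-values were Benjamini-Hochberg adjusted over all probes. A probe was called at an adjusted p under 0.05 and a log2 change of at least 1. Probes were named through RefSeq accessions.

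Up to 12 called genes per direction were named by size of change, filled up by smallest unadjusted p, with list members past the adjusted test or else the 2 of largest change, and genes the study stressed; further genes were named after their values were seen. A list member is not reported here. One probe stood for a gene in a list, the one of highest mean. The comparison, the gene lists and their members were chosen with earlier results of these data known. No depth applies to arrays: the number of arrays limits the precision. Alternatives were the background offset, the processed signal, the deposited values, the filter on dim probes, the 6 arrays alone, both tissues together, the slide as a term or random block, array weights and leaving out each mouse. The fit was tested on simulated data. Figures were drawn with matplotlib 3.10.9.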

Additional observations from a re-analysis of the deposited data

How the results depend on the processing

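With all 6 mice 10 probes were called higher, 71 lower and 103 at any size by limma. With a background offset of 50 the counts were 7, 27 and 142, with the processed signal 8, 199 and 280, and with the deposited values 7, 154 and 184. Testing all probes gave 12, 52 and 69, and probes well above background on at least 3 of the 6 arrays gave 17, 69 and 167. The 6 arrays alone gave 0, 0 and 0 (4408 at the unadjusted p), both tissues normalized together 9, 71 and 128, the slide as a term 62, 94 and 161, the slide as a random block 0, 2 and 2, and array quality weights 156, 1033 and 3006. Leaving out 1 mouse in turn gave 0 to 312 higher, 2 to 1390 lower and 2 to 4758 at any size. Without mouse 5 and without mouse 15 these were 0, 2 and 2, without mouse 25 312, 1390 and 4758, without mouse 6 47, 94 and 192, without mouse 16 7, 42 and 52, and without mouse 26 3, 13 and 16. An arm of 2 mice was fitted with the spread pooled over doses. Both further settings were chosen after seeing the data: probes well above background on all 6 arrays gave 17, 34 and 112, and the later scan day alone, with 1 mouse of 8 Gy assumed to vary like those of 12 Gy, gave 3, 5 and 8, none of them among the 81. The cause of these differences was not tested.

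None of the named called genes changed direction in a setting that tested it. These genes were called and did not overlap between doses in the same mice. Their direction with the slide term, on the later scan day or with a mouse left out was therefore largely fixed by that choice. All 21 were tested except with probes well above background on at least 3 arrays (15), on all 6 arrays (8) and with the later scan day alone (17). With the slide term 3 remained called, with the slide as a random block 2, with offset 50 6 and with the 6 arrays alone 0. Among genes that had not passed the test, 27 values changed sign, none past the adjusted test. With the slide term these were Sftpb (0.78), Slc7a2 (0.88), Hbb-b1 (0.15), Cd163 (0.51), Ddit3 (-0.01), Cd4 (0.11), Ifi44 (0.22), Mcidas (0.44), Col5a1 (-0.03), Hba-a1 (0.01) and Hba-a2 (0.32). The later scan day alone gave the same genes 0.79, 0.81, 0.16, 0.48, -0.02, 0.11, 0.22, 0.44, -0.03, 0.01 and 0.29 in that order. Leaving out 1 mouse gave -1.05 to 0.03 for Slc7a2 (0.03 without mouse 15), -0.70 to 3.24 for Myh2 (-0.70 without mouse 6), -0.18 to 1.73 for Ckm (-0.18 without mouse 25) and -0.08 to 1.84 for Tnnt2 (-0.08 without mouse 26). Ptcra was at 0.01 with array weights.

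The difference between the lung and liver steps was called in 0 probes, and in 0 with the slide as a random block, 7 with offset 50 and 10 with the processed signal. The lung mice of 8 and 12 Gy share no numbers, so that no block could enter their contrast. Between tissues the same numbers occur, and with the mouse number as a replicate block 0 probes were called (5971 at the unadjusted p). The deviations of same-numbered lung and liver arrays correlated at -0.052 to 0.050, 0 of 18 pairs over 0.1, and the consensus correlation was -0.000215. Deviations from group means in different tissues need not correlate within a mouse. These values therefore cannot decide whether the numbers stand for mice. Leaving out 1 mouse gave 0 to 1058 probes: 1058 without lung mouse 25, 40 without lung mouse 6, 12, 19 and 20 without liver mice 5, 15 and 25, 1 without liver mouse 6 or lung mouse 26, and 0 otherwise.

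Signal over background limits the lower calls: 56 of the 71 were well above background on no 12 Gy array, so that the fitted change of such a probe is not a measured size.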

Other observations

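The dendritic cell list had 9 of 14 genes above 0 (median change 0.08) and the monocyte list 10 of 15 (median 0.26). The 3 genes given here were lower; Cd209a and Siglech were named after their values were seen, and Cd300e as a member of large change. Cd209a (DC-SIGN), a lectin of monocyte-derived dendritic cells, was at 10.20, 9.44 and 10.41 in the 8 Gy mice and at 9.13, 9.32 and 9.26 in the 12 Gy mice (-0.78 ± 0.23, limma adjusted p = 0.108, -1.17 with the slide term), against 11.01 ± 0.22 (SD, n = 3) in sham mice. Siglech, a receptor of plasmacytoid dendritic cells, was at 14.43, 14.24 and 11.93 and at 12.85 and 11.15, mouse 26 set aside (-1.53 ± 0.64, adjusted p = 0.206), and with mouse 25 within the 12 Gy range its change was 0.08 with the slide term. Cd300e, a receptor of non-classical monocytes, had a sham mean of 8.64 and was at 5.74, 6.17 and 6.09 at 8 Gy. It was well above background on no 12 Gy array and at least 1.51-fold lower (adjusted p = 0.116).

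Serpina9, a serine protease inhibitor, was at 10.17, 10.04 and 10.30 at 8 Gy and at 10.65, 11.23 and 10.60 at 12 Gy (0.66 ± 0.27, limma adjusted p = 0.193, 0.52 with the slide term), while its change in liver was -1.27 (adjusted p = 0.318). Map3k6, a stress-activated kinase, had a sham mean of 10.88 and was at 12.86, 12.51 and 12.36 at 8 Gy and 12.31, 11.36 and 11.65 at 12 Gy (-0.81 ± 0.27, adjusted p = 0.132, -0.59 with the slide term).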
